A study of Danio rerio with 116 samples.

Results

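Germline cells of zebrafish embryos were compared here with germline cells of larvae, by the CG methylation of 15 low-coverage whole genome bisulfite sequencing libraries out of the 116 libraries of the series. The members were chosen by their titles: the EGFP +ve libraries of 1 and 2 days post fertilisation (dpf), called embryo here (n = 6), and those of 7, 14 and 21 dpf, called larva (n = 9), with 3 libraries, replicates A to C, at each of the 5 ages. All fish carried a transgene in which the promoter of vasa, a gene of the germ plasm, drives EGFP. Each library was made from cells that were sorted by their green fluorescence from 10 pooled fish. The paper describes fish of these ages as sexually undifferentiated. Whole fish were dissociated up to 14 dpf, while at 21 dpf the gonadal region was dissected first, so the last larval age also differs in the tissue that went into the sorter. The labels call the EGFP +ve cells germinal stem cells. EGFP −ve cells of the same ages served as controls, called whole embryo in the labels at 1 dpf. A methylation library holds no expression of marker genes, so the identity and purity of the sorted cells were not checked here.

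In vertebrates most cytosines that are followed by a guanine carry a methyl group, and the pattern is copied to the new strand after replication by the maintenance methyltransferase Dnmt1. Stretches dense in CG, such as many promoters, are often free of it, while CG-sparse DNA is mostly methylated. Primordial germ cells of mice erase most of this methylation on their way to the gonad. In zebrafish, germ cells are set apart early by inherited germ plasm and reach the site of the future gonad within the first day of development. A single read of a bisulfite library comes from 1 DNA molecule, so the calls on a read show whether neighbouring CGs of a molecule share their state.

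The 15 libraries held 295280 CG calls on 87393 reads. The smallest library had 8735 calls and the largest 65616 (median 12976), on 2610 to 19517 reads. Reads that touched a ribosomal DNA array on chromosome 4, from 76313463 to 76330850 in the coordinates of the files, were left out (57 reads). With the calls of a library pooled, the 95% Wilson interval of its methylation reached between 0.287 and 0.866 percentage points to either side. These intervals cover counting error only, and since calls on a read are not independent they are narrower than the true counting error. The labels do not say that replicates came from separate clutches, so p-values measure the spread between these libraries.

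Germline cells of larvae were less methylated than those of embryos. Global methylation, taken as the unweighted average of the methylated percentage of 10 Mb windows on the 25 chromosomes, was 84.4% ± 0.777 (SD, n = 6) in embryos and 76.9% ± 1.68 (SD, n = 9) in larvae. At 1 dpf the libraries had 85.2%, 85.5% and 83.5%, and at 2 dpf 83.9%, 84.3% and 84.0%. At 7 dpf they had 75.9%, 75.7% and 76.0%, at 14 dpf 78.8%, 75.5% and 75.7%, and at 21 dpf 77.6%, 80.2% and 76.8%. The lowest embryo library stood above the highest larval library, which was replicate B of 21 dpf. The fall was 7.47 percentage points (SE 0.642, 95% interval 5.87 to 9.01), with p = 0.0002 by an exact permutation test over the libraries (two-sided), the smallest p that the 5005 arrangements allow. In other words, unmethylated calls rose from 15.6% to 23.1%, by a factor of 1.48.

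**Figure D1:**
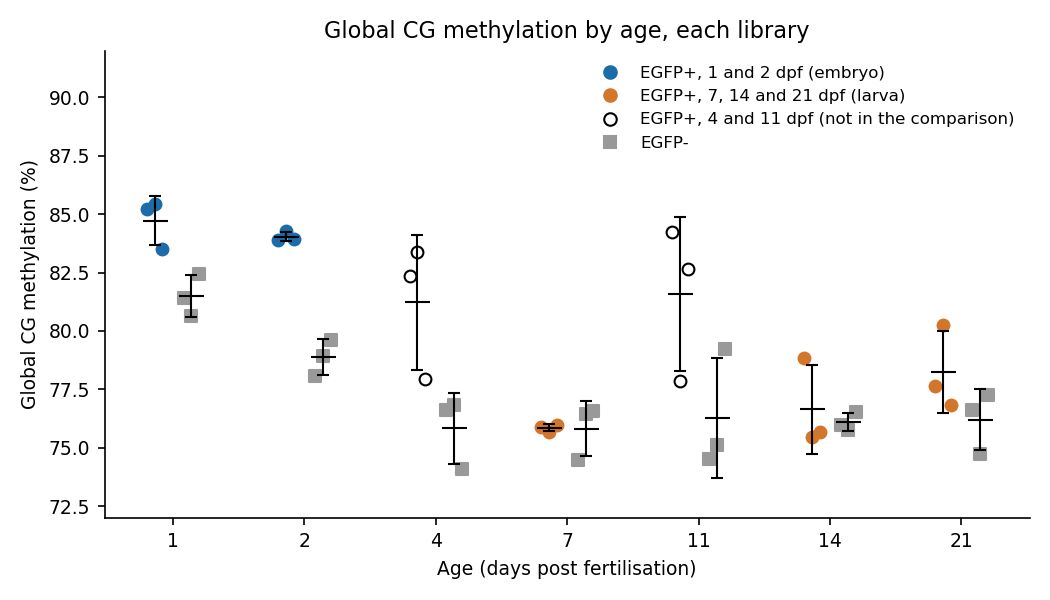
Global CG methylation (%, vertical axis) of every library from 1 to 21 dpf (horizontal axis), with EGFP +ve libraries as circles and EGFP −ve libraries as grey squares; bars show the mean and SD of 3 libraries. The embryo libraries (blue) lie between 83.5% and 85.5% and the larval libraries (orange) between 75.5% and 80.2%, while the open circles of 4 and 11 dpf spread from 77.9% to 84.2%.

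The fall lay between 2 and 7 dpf, but its course there was not uniform. The mean of 1 dpf was 84.7% ± 1.05 and that of 2 dpf 84.0% ± 0.202 (SD, n = 3 each), which overlapped and differed by 0.689 points (exact permutation test, p = 0.4). The step from 2 to 7 dpf was 8.19 points, without overlap (exact permutation test, p = 0.1, the smallest that 3 libraries against 3 allow). The 3 larval ages had means of 75.8%, 76.7% and 78.2%, and their spread of 2.39 points was within that of rearranged libraries (exact permutation test, p = 0.2). When each age counted as 1 value, the 2 embryonic ages stood above the 3 larval ages, with p = 0.1 by an exact permutation test, again the smallest possible.

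The ages of 4 and 11 dpf, which the comparison leaves out, did not separate in this way. At 4 dpf the libraries had 82.4%, 83.4% and 77.9%, and at 11 dpf 84.2%, 77.9% and 82.7%. At both ages, then, 1 library was at the larval level and the others were near or within the range of embryos. The mean of 7 dpf minus that of 11 dpf was -5.735 points, without overlap (exact permutation test, p = 0.1, the smallest possible). All libraries titled 11 dpf thus stood above those of 7 dpf, a difference that so few libraries cannot establish. The labels disagree about the 11 dpf libraries: their titles give 11 dpf and their day field gives 7. With both ages counted as larvae the fall was 5.67 points (exact permutation test, p = 0.00035), and the groups overlapped. EGFP +ve libraries of 25 dpf (76.1% to 77.2%, n = 3) and 28 dpf (77.0% to 80.7%, n = 5) had the level of the larvae.

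EGFP −ve cells also lost methylation between the same stages. Their global methylation was 80.2% ± 1.62 (SD, n = 6) at 1 and 2 dpf and 76.0% ± 0.920 (SD, n = 9) at 7, 14 and 21 dpf, a fall of 4.15 points without overlap (exact permutation test, p = 0.0002). EGFP +ve cells were thus 4.19 points above control cells in embryos and 0.871 points above them in larvae. The fall of EGFP +ve cells was 3.32 points larger (SE 0.971). With stage labels permuted within each cell type this difference gave p = 0.18 (100000 permutations, two-sided), a test in which both falls widen the distribution of the rearranged values. With deviations from the stage means permuted instead, chosen after seeing the data, the permutation test gave p = 5.00e-05. With 4 and 11 dpf added to the larvae of both cell types, the difference was 1.53 points (permutation test of stage labels, p = 0.477). Control cells were already at 75.8% ± 1.53 (SD, n = 3) at 4 dpf, where EGFP +ve cells had 81.2% ± 2.90 (SD, n = 3). The gap did not close steadily with age. EGFP +ve and control cells had means of 75.85% and 75.82% at 7 dpf, 76.65% and 76.1% at 14 dpf, and 78.2% and 76.2% at 21 dpf. At 11 dpf, left out of the comparison, they had 81.6% and 76.3% (n = 3 each).

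The libraries were sequenced on several runs, which can be read from the names of the reads. Each of 3 runs held 1 library of 1 dpf beside larval libraries, and the embryo library was the higher in all of them: 85.2% against a mean of 75.8% for 2 larval libraries, 85.5% against 77.3% for 4, and 83.5% against 76.8% for 1. The mean difference within runs was 8.07 points (exact permutation test within runs, p = 0.0333, the smallest possible). All 3 EGFP +ve libraries of 2 dpf were on a run that held the controls of that age and no other EGFP +ve library of the comparison, so their age and their run cannot be told apart.

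The fall extended over nearly the whole karyotype. Pooled by chromosome, methylation was lower in larvae on all 25 chromosomes, by 3.83 to 11.2 points with a median of 7.78, and 24 of them passed the exact permutation test at an adjusted p under 0.05 (Benjamini-Hochberg over the 25, 96% of those tested). Chromosomes 22, 19 and 23 had the largest falls. Chromosome 22 went from 86.7% ± 3.81 (SD, n = 6) in embryos to 75.6% ± 5.75 (SD, n = 9) in larvae, a fall of 11.2 points (exact permutation test, adjusted p = 0.0025). Chromosome 19 fell by 10.1 points from 86.2%, and chromosome 23 by 9.63 points from 85.6%, both with the same adjusted p by that exact test. At the other end, chromosome 6 went from 83.6% ± 2.10 (SD, n = 6) to 79.8% ± 4.05 (SD, n = 9), a difference of 3.83 points that did not pass (exact permutation test, adjusted p = 0.0567). Chromosome 3 fell by 4.03 points (exact permutation test, adjusted p = 0.0266) and chromosome 17 by 4.66 (exact permutation test, adjusted p = 0.0235). On chromosomes 14 and 16 every embryo library stood above every larval library, and on the other 23 the groups overlapped; these 2 are named for that count, after their values were seen. A library had between 231 and 3306 calls on a chromosome, and the order of the chromosomes was not tested.

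**Figure D2:**
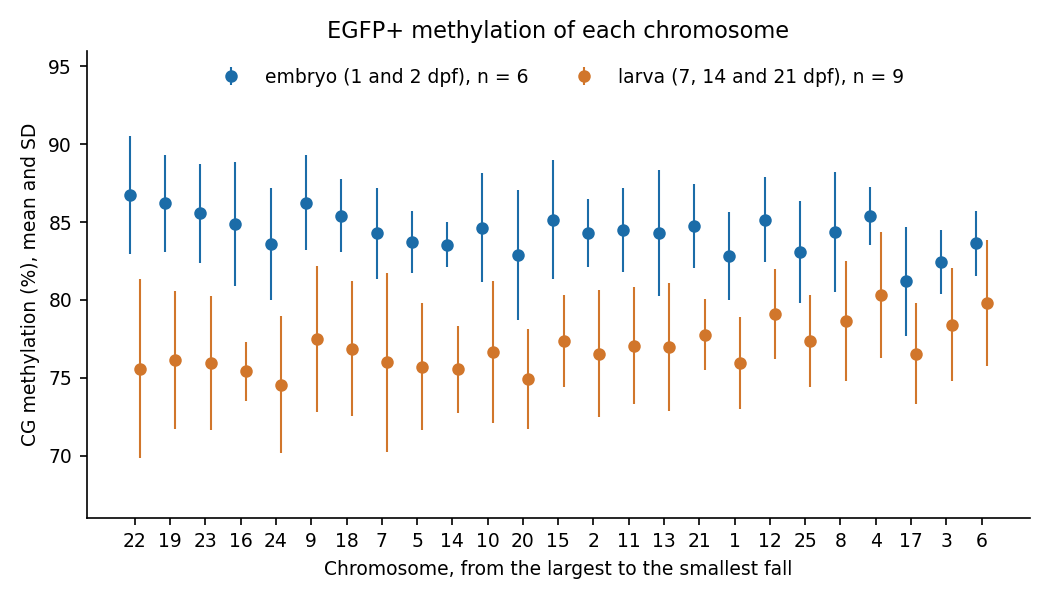
Methylation (%, vertical axis, mean and SD over libraries) of each chromosome in embryo (blue, n = 6) and larval (orange, n = 9) EGFP +ve libraries, with chromosomes ordered by the size of the fall (horizontal axis). Larval means lie below embryo means on every chromosome, from a difference of 11.2 points on chromosome 22 to 3.83 points on chromosome 6.

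Chromosome 4, whose long arm is gene-poor, repeat-rich and late replicating in zebrafish, stood at 85.4% ± 1.85 (SD, n = 6) in embryos and 80.3% ± 4.04 (SD, n = 9) in larvae, the highest larval mean of the 25. Its fall was 5.04 points (exact permutation test, adjusted p = 0.0184). Beyond 30 Mb, which takes in most of that arm, methylation was 89.5% ± 1.89 in embryos and 85.9% ± 3.88 in larvae (SD, n = 6 and 9), a difference of 3.59 points that missed the threshold (exact permutation test, p = 0.0593, 95% interval -0.127 to 7.33). The remainder of chromosomes 1 to 25 fell by 7.45 points from 84.2%. The 2 differences were set against each other within libraries: this stretch was 5.37 points more methylated than the remainder in embryos and 9.24 points in larvae (exact permutation test, p = 0.0252). Single larval libraries had between 80.4% and 92.2% there, on 167 to 919 calls. The remainder of chromosome 4 alone fell by 6.465 points from 80.2%, which also missed the threshold (exact permutation test, p = 0.0563). The boundary was chosen after seeing the data, and the differences were compared in points only, from unlike levels in embryos.

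No difference in the fall was detected between the ends and the interior of chromosomes. In the outermost 2 Mb at either end, methylation fell from 83.2% ± 0.989 (SD, n = 6) to 75.9% ± 2.86 (SD, n = 9), and in the interior from 84.4% ± 0.740 (SD, n = 6) to 77.0% ± 1.74 (SD, n = 9). The difference between ends and interior was -1.18 points in embryos and -1.19 points in larvae. Its change was 0.00284 points (exact permutation test, p = 0.998, 95% interval -2.77 to 2.65). Ends were also a cut chosen after seeing the data.

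Single windows of 10 Mb held few calls, with a median of 100 per library. Of 146 windows, 136 had at least 20 calls in every library, and 132 of these had a lower mean in larvae, with a median fall of 7.17 points and an interquartile range of 3.92 to 10.2. With the exact permutation test, 49 windows had an unadjusted p under 0.05, all of them lower in larvae, and 16 passed after adjustment (11.8% of those tested). That last count was unstable. All 16 had an adjusted p of 0.0476 by that exact test, close to the threshold, and leaving out a library also lowers the number of arrangements. By the same exact permutation test the count was 0 without replicate A, B or C of 1 dpf, A or B of 2 dpf, C of 14 dpf or C of 21 dpf. It was 2 without replicate B of 14 dpf, 3 without C of 2 dpf or B of 21 dpf, 10 without B of 7 dpf and 29 without A of 14 dpf. With single libraries left out, between 43 and 55 windows had an unadjusted p under 0.05. Among the 16, the largest falls were those of 40 to 50 Mb on chromosome 11, by 18.8 points from 89.4% (exact permutation test, adjusted p = 0.0476), of 40 to 50 Mb on chromosome 1, by 15.2 points from 88.4%, and of 20 to 30 Mb on chromosome 9, by 14.9 points from 87.7%, with the same adjusted p.

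Larvae had the higher mean in 4 windows, and none of these differences passed the test. They were 70 to 80 Mb on chromosome 4 (embryo minus larva -4.08 points, exact permutation test, unadjusted p = 0.448), 30 to 40 Mb on chromosome 6 (-1.98 points, p = 0.725), the first 10 Mb of chromosome 5 (-0.319 points, p = 0.913) and 10 to 20 Mb on chromosome 13 (-0.204 points, p = 0.965). The first of them is the end of the long arm of chromosome 4, with the ribosomal array left out, where single embryo libraries ranged from 62.7% to 96%.

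CG density was read from the number of CG calls on a read. The length of reads was not taken into account, so a read with few calls may also be a short one. Reads with 1 call made up 25.4% of the reads on chromosomes, those with 2 or 3 calls 38.7%, those with 4 to 7 calls 28.7% and those with 8 or more 7.12%. The average number of calls per read was 3.37 in embryos and 3.34 in larvae (exact permutation test, p = 0.523). The share of reads with 1 call differed most, by 1.06 points, and a fall computed with the same composition of reads in every library was 7.36 points.

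Methylation fell in all 4 classes of reads, with the largest mean fall on the sparsest. On reads with a single call it went from 86.9% ± 1.91 (SD, n = 6) to 76.9% ± 2.62 (SD, n = 9), a fall of 10.0 points (SE 1.17, exact permutation test, adjusted p = 0.000266 over the 4 classes). On reads with 2 or 3 calls it fell by 7.76 points from 87.9%, and on those with 4 to 7 calls by 7.58 points from 86.3%, with the same adjusted p. In these 3 classes no larval library reached the lowest embryo library. Reads with 8 or more calls, which come from CG-dense DNA, were the least methylated at both stages, at 74.5% ± 1.31 (SD, n = 6) and 69.0% ± 3.12 (SD, n = 9). Their fall was 5.49 points (SE 1.17, exact permutation test, adjusted p = 0.0032), and replicate A of 14 dpf, at 75.8%, lay within the range of the embryos.

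**Figure D3:**
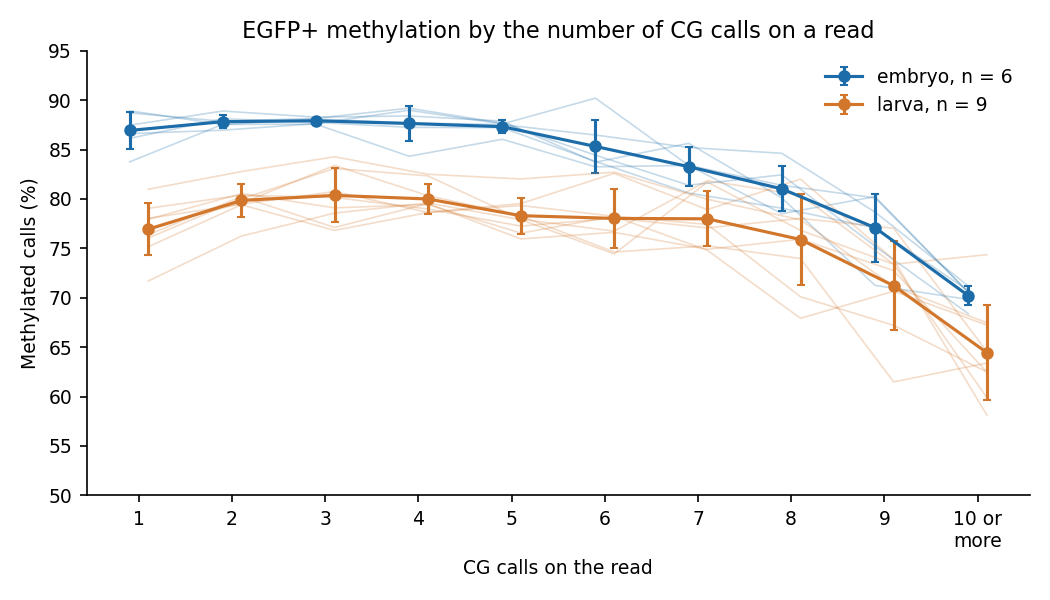
Methylated calls (%, vertical axis) by the number of CG calls on a read (horizontal axis) in EGFP +ve libraries of embryos (blue, n = 6) and larvae (orange, n = 9); points and bars are means and SD, and thin lines single libraries. Both curves decline on reads with many calls. The gap does not narrow steadily: it is 10.0 points at 1 call, 7.55 at 3, 9.01 at 5, 5.12 at 8 and 5.77 at 10 or more.

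The mean gap between dense and sparse reads was therefore smaller in larvae. Reads with 8 or more calls were 12.4 points below reads with 1 call in embryos (± 2.40, SD, n = 6) and 7.90 points below in larvae (± 3.77, SD, n = 9). The difference of -4.51 points passed the exact permutation test (p = 0.02, 95% interval -8.33 to -0.815), and on the log-odds scale, chosen after seeing the data, so did -0.425 (exact permutation test, p = 0.000999). This difference was less stable than the fall itself, and 14 dpf stood apart from the other larval ages. Dense minus sparse reads averaged -11.9 points at 1 dpf, -12.9 at 2 dpf, -10.55 at 7 dpf, -3.77 at 14 dpf and -9.39 at 21 dpf. Controls of 14 dpf had -2.10 points. Without 14 dpf the difference between the stages was -2.45 points and missed the threshold (exact permutation test, p = 0.0758). Without replicate A of 1 dpf (-4.00 points, exact permutation test, p = 0.0519) or replicate C of 2 dpf (-4.05 points, p = 0.0509) it missed the threshold, and so it did for reads with 4 or more calls against those with 1 to 3 (-1.39 points, exact permutation test, p = 0.114). In controls dense reads were 9.74 points below sparse reads in embryos and 5.89 points below in larvae, a change of -3.84 points (exact permutation test, p = 0.0801). The change in EGFP +ve cells was not shown to differ from it (permutation test of stage labels, p = 0.829, unadjusted). Both changes widen the distribution of the rearranged values in this test.

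The largest part of the loss lay on reads with 4 to 7 calls, which also hold the largest share of the calls. Weighted by their share of calls, these reads made up 44.3% of the fall of pooled calls, near the 43.2% of calls that they hold. Reads with 2 or 3 calls made up 29.5% of the fall with 28.1% of the calls. Reads with 8 or more made up 15.8% with 21.2% of the calls, and reads with 1 call 10.3% with 7.60%.

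Within reads, complete methylation became rarer. Among reads with 4 to 7 calls, 67.0% ± 2.98 (SD, n = 6) were methylated at every call in embryos and 53.4% ± 2.82 (SD, n = 9) in larvae, a difference of 13.7 points (SE 1.54). The shares were 65.4%, 69.3% and 62.7% at 1 dpf and 65.5%, 70.6% and 68.8% at 2 dpf. They were 54.1%, 52.0% and 51.2% at 7 dpf, 52.8%, 51.02% and 51.2% at 14 dpf, and 53.6%, 60.1% and 54.3% at 21 dpf. All embryo libraries were above all larval libraries, of which replicate B of 21 dpf came closest.

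Mixed reads, with both states on 1 molecule, took up most of the difference. Their share rose from 26.7% ± 2.61 (SD, n = 6) to 37.5% ± 2.71 (SD, n = 9), by 10.8 points. Reads without any methylated call rose from 6.28% ± 0.527 (SD, n = 6) to 9.16% ± 0.927 (SD, n = 9). For all 3 shares the groups did not overlap and the exact permutation test gave an adjusted p of 0.0002, the smallest possible. Each library had between 701 and 5425 such reads, whose first and last calls lay a median of 87 to 93 bases apart.

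**Figure D4:**
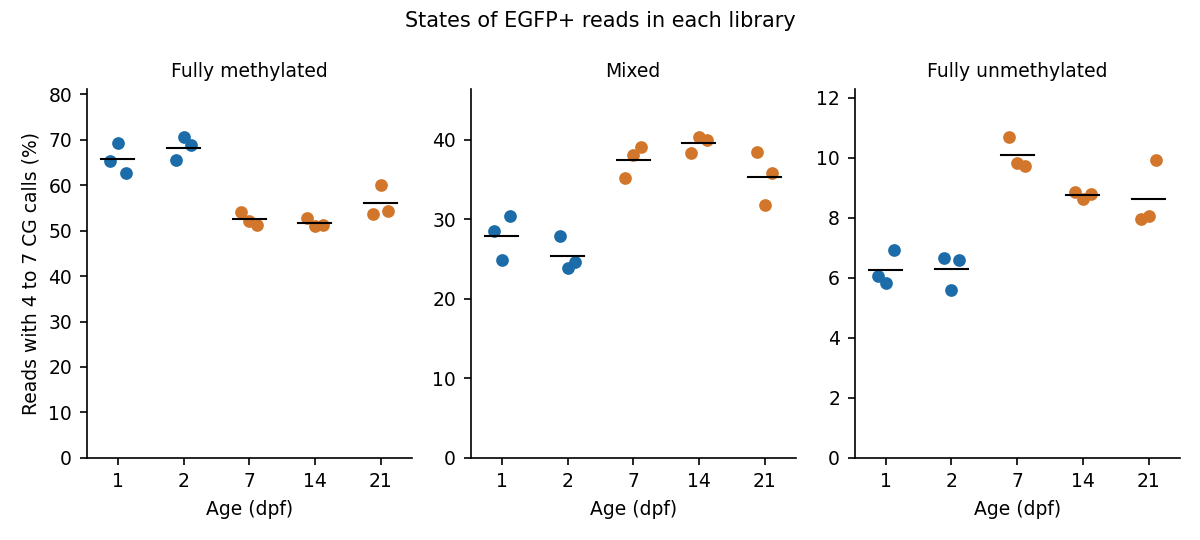
Share (%, vertical axes from 0, each with its own scale) of EGFP +ve reads with 4 to 7 CG calls that were fully methylated, mixed or fully unmethylated, for each library (points) by age in dpf; lines are means of 3 libraries. Fully methylated reads are at 62.7% or more in embryos (blue) and at 60.1% or less in larvae (orange), and the other 2 panels show the reverse order.

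The added unmethylated calls lay on both other kinds of read. Of 100 calls on reads with 4 to 7 calls, 13.7 were unmethylated in embryos and 21.3 in larvae. Those on fully unmethylated reads rose from 6.66 to 9.43 and those on mixed reads from 7.05 to 11.8 (exact permutation test, p = 0.0002 for each). Unmethylated calls that were the only one on their read rose from 4.07 to 4.71 (exact permutation test, p = 0.00899), and mixed reads themselves became less methylated, from 73.3% to 68.1% of their calls (exact permutation test, p = 0.0002). These breakdowns were added after the first results were seen.

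Neighbouring calls shared their state more often than independent calls at a common level would. For this, calls were taken as independent, with the same level on all reads with 4 to 7 calls of a library. Fully methylated reads would then have made up 48.3% in embryos and 31.0% in larvae, against the observed 67.0% and 53.4%. Whether reads from regions of unlike level make up part of this excess was not tested. Pairs of calls on the same read had the same state in 88.4% of pairs in embryos and 83.1% in larvae. This exceeded the value for independent calls at a common level by 12.04 points in embryos and 16.5 points in larvae (exact permutation test of the excess, p = 0.0002). The value for independent calls at a common level itself went from 76.4% to 66.5%, which leaves more room for an excess in larvae. On reads with 8 or more calls the excess was 29.1 points in embryos and 30.6 points in larvae, and the difference did not pass (exact permutation test, p = 0.333, 95% interval -4.49 to 1.71). Next to an unmethylated call, the adjacent call of the read was unmethylated in 66.5% ± 1.63 (SD, n = 6) of cases in embryos and 67.2% ± 3.22 (SD, n = 9) in larvae, over all reads with at least 2 calls. This probability did not differ detectably (-0.666 points, exact permutation test, p = 0.669, 95% interval -3.62 to 2.51), while the share of unmethylated calls rose. It declined with distance at both stages, from 75.1% and 75.7% for calls up to 10 bases apart to 42.9% and 46.8% for calls over 50 bases apart.

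On reads with 8 or more calls the same order held for complete methylation. Fully methylated reads fell from 48.1% ± 1.31 (SD, n = 6) to 38.4% ± 4.64 (SD, n = 9; exact permutation test, p = 0.0012) and mixed reads rose from 34.7% to 41.8% (exact permutation test, p = 0.003). Fully unmethylated reads were at 17.2% ± 1.44 (SD, n = 6) and 19.8% ± 3.02 (SD, n = 9), a difference that missed the threshold (exact permutation test, p = 0.0813, 95% interval of embryo minus larva -5.28 to 0.358).

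The read states of control cells moved the same way. Their fully methylated reads with 4 to 7 calls went from 58.3% ± 2.88 (SD, n = 6) to 51.9% ± 2.10 (SD, n = 9), a fall of 6.42 points (exact permutation test, p = 0.0002). EGFP +ve cells thus had 8.73 points more fully methylated reads than controls in embryos and 1.48 points more in larvae. At 11 dpf, left out of the comparison, the shares were 60.5% in EGFP +ve cells and 52.5% in controls (n = 3 each). The difference between the 2 changes was 7.25 points (permutation test of stage labels, p = 0.104, unadjusted). Since both changes widen the distribution of the rearranged values, a miss in this test does not show that they were alike.

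Regions were then grouped by a measure that no EGFP +ve library entered. The 13289 windows of 100 kb with at least 30 calls in control cells, all ages merged, were divided into 4 equal classes by their methylation there, with boundaries at 72.1%, 79.1% and 84.4%. EGFP +ve methylation fell in all 4. In class 1, the least methylated, it went from 75.05% ± 1.04 (SD, n = 6) to 67.1% ± 2.46 (SD, n = 9), a fall of 7.99 points. Class 2 fell by 8.23 points from 84.4% and class 3 by 7.23 points from 87.2%. Class 4, the most methylated, went from 89.9% ± 0.627 (SD, n = 6) to 84.3% ± 2.24 (SD, n = 9), a fall of 5.54 points. The exact permutation test gave an adjusted p of 0.000266 for the first 3 and of 0.000599 for the last, and the groups overlapped in none.

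**Figure D5:**
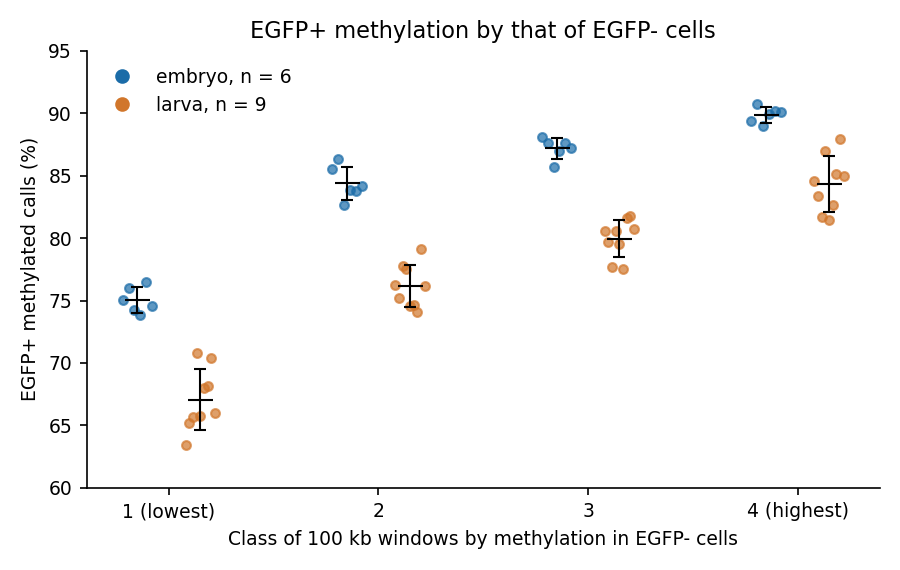
Methylated calls (%, vertical axis) of EGFP +ve libraries in the 4 classes of 100 kb windows formed by the methylation of EGFP −ve cells (horizontal axis), with embryos in blue (n = 6) and larvae in orange (n = 9); bars show the mean and SD. Larval libraries lie below embryo libraries in every class, by 8.23 points in class 2 and 5.54 points in class 4.

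In points, the fall in class 1 exceeded that in class 4 by 2.45 (exact permutation test, p = 0.0108, 95% interval 0.649 to 4.33). On the log-odds scale the order turned, with -0.102 and an interval that included 0 (exact permutation test, p = 0.0899). Unmethylated calls rose by a factor of 1.32 in class 1 and of 1.53 to 1.56 in the others. Both scales were examined after the first results were seen. Control cells, which also set the classes, fell by 4.21, 4.45, 4.18 and 2.78 points in classes 1 to 4. The falls of EGFP +ve cells were larger by 3.78, 3.78, 3.05 and 2.76 points in classes 1 to 4. In no class did this difference pass (permutation tests of stage labels, adjusted p = 0.32 to 0.327). Both falls widen the distribution of the rearranged values in these tests, so a miss does not show that the falls were alike.

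On unplaced scaffolds the difference between the stages did not pass the test. Their calls, 7320 in all and between 204 and 1605 per library, were methylated at 84.6% ± 5.84 (SD, n = 6) in embryos and 82.1% ± 3.68 (SD, n = 9) in larvae. The difference of 2.48 points was within the spread of libraries (exact permutation test, p = 0.338, 95% interval -2.69 to 7.79). It was 0.592 points without replicate A of 1 dpf, 1.53 without B of 7 dpf and 4.01 without B of 1 dpf, and passed in none of these. Embryo libraries ranged from 76.95% to 94.0%. Measured against the pooled calls of chromosomes 1 to 25 of the same library, scaffolds were 0.308 points higher in embryos and 5.21 points higher in larvae, a change of -4.90 points that did not pass either (exact permutation test, p = 0.0835, 95% interval -10.5 to 0.710). A fall as large as that of the chromosomes therefore lay within the interval, and so did none.

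Mitochondrial DNA, whose CGs are generally taken as unmethylated, gave only 695 calls on 205 reads over all 15 libraries, of which 12.5% were methylated. Per library there were between 4 and 178 calls on 2 to 50 reads. The mean of libraries was 18.5% ± 17.5 (SD, n = 6) in embryos and 11.1% ± 11.2 (SD, n = 9) in larvae (exact permutation test, p = 0.339, 95% interval of the difference -8.39 to 23.6). The difference of 7.38 points became 1.85 without replicate C of 1 dpf, a library with 13 calls, and 11.1 without B of 2 dpf, and passed in neither case. Pooled calls had the opposite order, 9.62% of 395 calls in embryos and 16.3% of 300 calls in larvae.

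Mitochondrial values differed between the embryonic ages. At 1 dpf the libraries had 27.8% of 18 calls, 22.2% of 81 and 46.2% of 13. At 2 dpf they had 1.12% of 178 calls (exact 95% interval 0.136% to 4.00%), 0 of 54 (exact 95% interval up to 6.60%; 3 calls would make 5.56%) and 13.7% of 51. Larval libraries lay between 0 and 30.8%. Since calls on a read are not independent, the exact intervals given here are narrower than the true counting error. Mean global methylation was 84.7% at 1 dpf and 84.0% at 2 dpf. Calls that escaped conversion would read as methylated. The paper assessed conversion by non-CG methylation, which the CG calls used here do not hold. Whether conversion had a part in these mitochondrial values was not tested.

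Mitochondrial reads made up 0.307% ± 0.236 (SD, n = 6) of the reads with a call in embryos and 0.209% ± 0.270 (SD, n = 9) in larvae (exact permutation test, p = 0.482). Replicate B of 21 dpf, at 0.911%, stood above the other larval libraries, which reached 0.224%. With that library left out, embryos were 0.185 points higher (exact permutation test, p = 0.0376). It was singled out by its value on this same share, so this p-value follows from that choice. With any other single library left out, the difference did not pass.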

How the data were processed

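EGFP +ve and EGFP −ve cells of vasa:EGFP zebrafish were profiled by post-bisulfite adaptor tagging. The authors trimmed reads with Trim Galore and mapped them and extracted CG calls with Bismark 0.19.0. The deposited files hold 1 line per CG call (read, chromosome, position and methylation state) without normalization or pooling of replicates, so reads without a CG enter no share. The labels name GRCz10 and the methods another assembly, so positions are given as in the files. No genome or annotation of that build was used.

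Percentages were computed from calls in numpy 2.4.6, scipy 1.17.1 and pandas 2.3.3 under Python 3.11.15, and plotted in matplotlib 3.10.9. Samples were grouped by title. Embryo and larval libraries were compared by exact two-sided permutation tests of the difference of means (5005 arrangements), with Benjamini-Hochberg adjustment over chromosomes, windows, read classes, read states or window classes. SE combine the variances of both groups, and 95% intervals invert the permutation test. The difference between cell types used 100000 permutations. The chromosome test was tested on simulated data. The regions named are chromosome 4, the 3 chromosomes with the largest and the 3 with the smallest difference, the 3 windows with the largest difference among those past the threshold, and all windows with a difference below 0. The members, lists and tests were chosen with earlier results of these data known. Duplicates were removed, libraries thinned to 2609 reads, ages, runs and libraries left out, and the replicate letter used as a block as alternatives. 30 files of older EGFP +ve libraries were not used. EGFP −ve libraries entered the comparison with controls at the same ages, and those of all ages the classes of 100 kb windows.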

Additional observations from a re-analysis of the deposited data

Results flagged for a closer look

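Among larval EGFP +ve libraries, replicate B of 21 dpf stood apart from the other 8 in its share of fully methylated reads with 4 to 7 calls, at 60.1% where the next library had 54.3%. The same library had 0.911% mitochondrial reads, and the next highest larval library 0.224%. Both gaps exceeded Dixon's 95% critical value for 9 values. These were the only gaps flagged among 32 groups examined, a share near the 5% that chance alone would flag. Without this library the fall of global methylation was 7.89 percentage points.

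The fall of global methylation from embryo to larva was 3.32 points larger in EGFP +ve cells than in control cells. It passed the permutation test of deviations from the stage means (p = 5.00e-05), but not the permutation test of stage labels (p = 0.18).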

How the results depend on the processing

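The fall of global methylation kept its direction under all alternatives and passed its permutation test in each that permuted libraries. It was 5.67 points with 4 and 11 dpf added and up to 8.19 points as a mean over reads. Over the means of the 5 ages the exact permutation test gave p = 0.1, the smallest possible, so it could not pass. With libraries permuted, the 4 read classes, the 4 window classes and the shares of fully methylated and mixed reads also kept direction and passed. Between 19 and 25 chromosomes passed. With libraries left out one at a time, the global fall ranged from 7.26 to 7.89 points. The count of 10 Mb windows past the adjusted threshold, 16, became 2 with libraries thinned to equal reads, 3 with 4 and 11 dpf added and 9 with 25 and 28 dpf added too. It was 0 without any one of the 5 ages (22 to 49 windows at an unadjusted p under 0.05, exact permutation tests) and ranged from 0 to 29 without single libraries. Leaving out ages or libraries also lowers the number of arrangements, which by itself makes the adjusted threshold harder to pass.

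Dense minus sparse reads missed the threshold without 1 dpf (-5.01 points), 2 dpf (-4.02) or 14 dpf (-2.45), and with 4 or more calls against 1 to 3 (-1.39), and ranged from -5.32 to -3.55 without single libraries. Fully unmethylated reads missed it among reads with 8 or more calls (-2.54 points). Mitochondrial methylation reversed to -6.17 points without 1 dpf and passed at 20.9 points without 2 dpf; without single libraries it ranged from 1.85 to 11.1 points, and the scaffold difference from 0.592 to 4.01. The difference of mitochondrial read shares ranged from 0.0383 to 0.185 points without single libraries. The causes were not tested.

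With the replicate letter taken as a block, which allows only 1000 arrangements, the global fall was 7.47 points (exact permutation test, p = 0.001). In that setting 0 windows passed, with 49 at an unadjusted p under 0.05, and no other call changed. No sign was seen that letters pair the ages. Deviations from the age means over chromosomes correlated above 0.1 in 12 of 30 pairs with the same letter and in 21 of 60 with different letters. Nor was there a sign for cell types (3 of 15 pairs). These deviations carry the counting error of single chromosomes, so the check could not decide whether libraries of the same letter shared fish. EGFP +ve minus control libraries of the same age and letter gave 3.32 points (exact permutation test, p = 0.00979), and so did deviations permuted without pairs (p = 5.00e-05), both chosen after seeing the data. Windows of 10 Mb held a median of 100 calls per library, and mitochondrial DNA between 4 and 178.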
